A study of Mus musculus with 6 samples.

Results

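The 39 protein-coding Hox cluster genes of the mouse were followed in RNA of embryonic pancreas, with and without the compound AMI-5. They were taken as every protein-coding gene whose symbol is Hox, a cluster letter from a to d and a number, and all 39 were found among the 49671 genes counted. Pancreata of C57BL/6J embryos at 14.5 days gave 3 control libraries and 3 libraries treated with 10 µM AMI-5, an inhibitor of protein arginine methyltransferases. How long the treatment lasted, what the controls received and whether replicate libraries stem from separate animals or cultures is not in the labels, so p-values measure only the spread between these samples. Whole pancreas was sequenced, and for every gene below fewer cells of a type and less RNA per cell cannot be told apart.

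Hox genes encode homeodomain transcription factors that give cells their position along the head-to-tail axis. They lie in 4 clusters in which the order of the genes follows the order of their expression along that axis, and genes at the same place in different clusters, the paralogue groups numbered 1 to 13, are close relatives. Low-numbered groups are used toward the head and high-numbered groups toward the tail, limb and genital bud. Retinoic acid and the Cdx factors are known activators of the clusters, Polycomb complexes keep silent parts of them closed, trithorax complexes keep active parts open, and Pbx and Meis proteins bind DNA together with Hox proteins. In the pancreas, Hox genes such as Hoxb6 are known from the mesenchyme that surrounds the epithelium.

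Libraries held 12445425 to 13321899 assigned reads in the controls and 22894312 to 24805188 with AMI-5. Directional kits of the same maker were used, but as read here the labels give an earlier version of the kit for the control libraries, so kit version and treatment cannot be told apart in any comparison here. Of 8 tested arginine methyltransferase genes, whose products the compound is known to inhibit, 3 fell and 0 rose, beside 26.6% of all tested genes lower and 27.5% higher, and those that fell include Prmt1, the main type I enzyme. Its level was 258.7 ± 11.9 CPM (reads of a gene in every 1000000 assigned reads) in the control group and 165.6 ± 11.5 CPM after AMI-5 (SD, n = 3; adjusted p = 5e-06 at a log2 fold change of −0.64). Levels of the Hox genes are given as RPKM, the CPM divided by the length of the gene in kilobases, which allow genes of different length to be set side by side.

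Only the head-side and middle part of the clusters was read. Across the 6 libraries the 39 genes received 13263 reads, of which 97.5% fell on paralogue groups 2 to 8, 1.92% on group 9 and 0.113%, or 15 reads, on the 12 genes of groups 10 to 13. A gene was called expressed in a group of libraries when it reached 1 RPKM in all 3. By that rule 14 genes were expressed in controls, namely Hoxa2 to Hoxa5, Hoxb2 to Hoxb8, Hoxc4, Hoxd8 and Hoxd9. With AMI-5 the number was 13, and the gene missing was Hoxd9.

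The deeper AMI-5 libraries did not set these numbers. After every library was thinned to the smallest total of 12445425 reads, the counts were again 14 and 13. At least 1 read in all 3 libraries was found for 22 genes in each group, at full depth and after thinning.

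**Figure D1:**
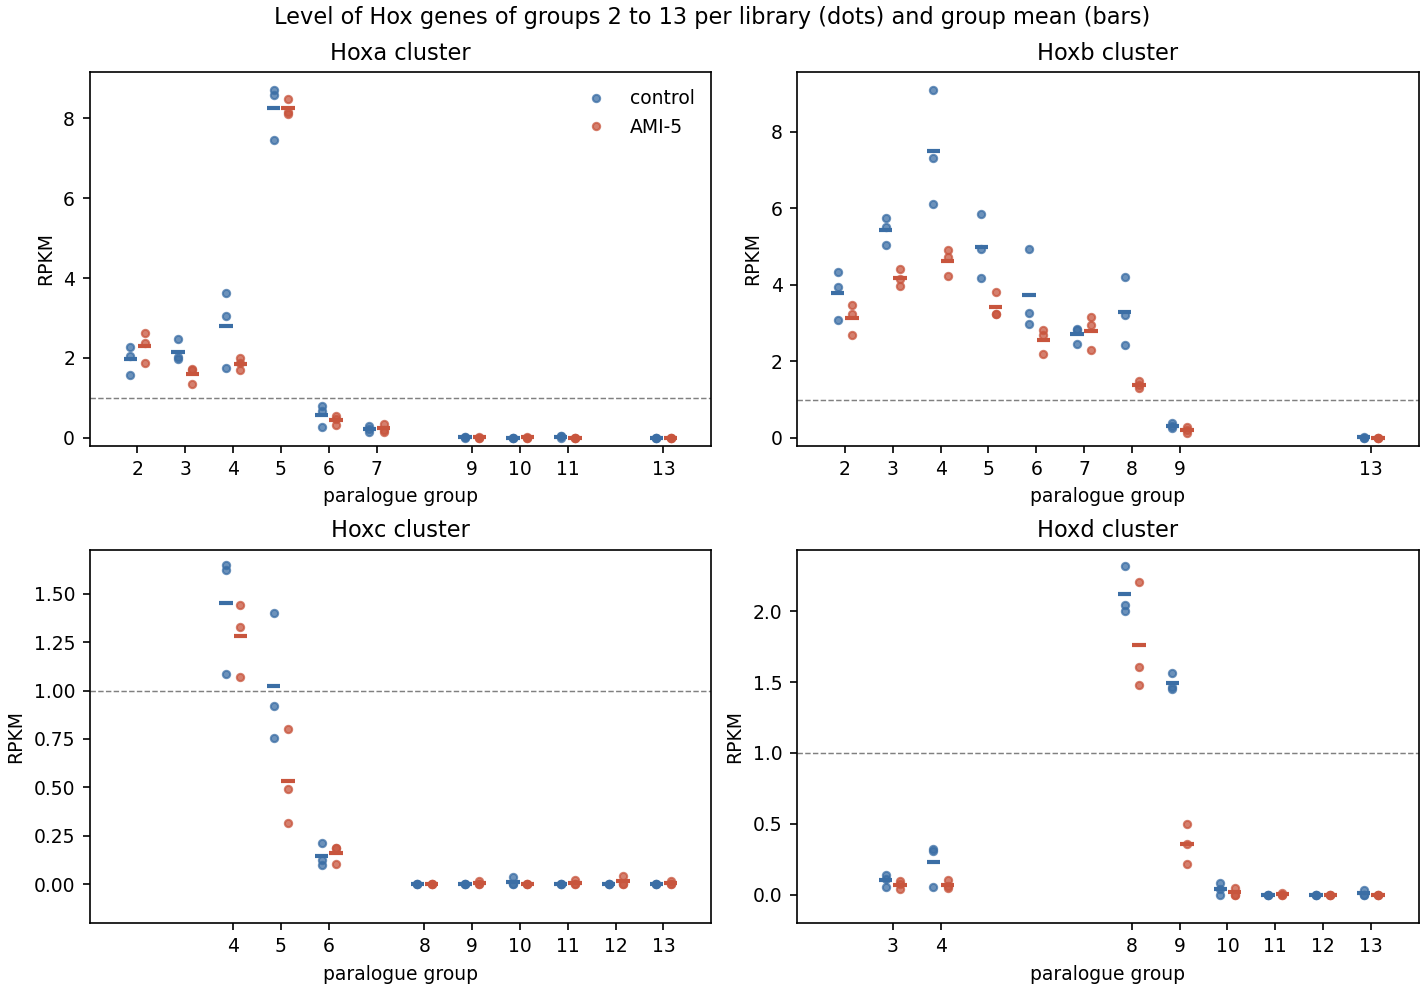
Level of Hox genes in RPKM (vertical axis, a different scale in each panel) against its paralogue group (horizontal axis, groups 2 to 13) in the 4 clusters. Dots are single libraries, short bars are means of 3 libraries, control is blue, AMI-5 is red and the dashed line marks 1 RPKM. Hoxa and Hoxb stop after groups 5 and 8 at this line, Hoxc holds only Hoxc4 throughout above it, and in Hoxd the red dots of Hoxd9 lie below the line and the blue dots above it.

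Hoxb, on chromosome 11, was the most strongly read cluster, with 59.9% of all Hox reads. Its levels as counted rose from Hoxb2 to a peak at Hoxb4 and then declined toward Hoxb7. Exons of the antisense gene Hoxb3os overlap 27.3% of the length of Hoxb2 and 52.9% of that of Hoxb3, and none of Hoxb4. Since the strand setting of the counting is not given, the levels of Hoxb2 and Hoxb3 may be affected. The place of the peak is thus not certain. In controls the group means were 3.79 ± 0.639 RPKM for Hoxb2, 5.43 ± 0.351 for Hoxb3, 7.50 ± 1.51 for Hoxb4, 4.99 ± 0.833 for Hoxb5, 3.73 ± 1.06 for Hoxb6, 2.70 ± 0.217 for Hoxb7 and 3.28 ± 0.885 for Hoxb8 (SD, n = 3). Hoxb7 and Hoxb8 differed by less than the SD of Hoxb8, and Hoxb2 and Hoxb6 by less than the SD of either. Past Hoxb8 the level dropped to 0.313 ± 0.0648 RPKM at Hoxb9, and Hoxb13 had 1 read in total. Hoxb1, at the other end, also had 1 read.

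Hoxa, on chromosome 6, was dominated by a single gene. Hoxa5 was read at 8.59, 7.45 and 8.72 RPKM in controls 1 to 3 and at 8.10, 8.50 and 8.17 RPKM with AMI-5, which made it the highest of the 39 genes over all libraries. It made up 51.01% ± 3.67 of the summed Hoxa level in controls and 55.2% ± 1.24 with AMI-5, and the libraries of the 2 groups overlapped. Hoxa2, Hoxa3 and Hoxa4 lay between 1.36 and 3.61 RPKM in single libraries. Beyond Hoxa5 the level fell steeply: Hoxa6 was read at 0.260 to 0.798 RPKM and Hoxa7 at 0.147 to 0.343 RPKM, and Hoxa9, Hoxa10 and Hoxa11 had 5, 1 and 2 reads in all. Hoxa13 had 0.

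Hoxc, on chromosome 15, was read at its head-side end alone. Hoxc4 reached 1.09, 1.65 and 1.62 RPKM in controls and 1.33, 1.44 and 1.07 RPKM with AMI-5, so its groups overlapped. Hoxc5 lay near the 1 RPKM line in controls, Hoxc6 stayed between 0.0966 and 0.212 RPKM, and the 6 genes from Hoxc8 to Hoxc13 together had 5 reads.

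Hoxd, on chromosome 2, had its reads in the middle of the cluster. In controls Hoxd8 at 2.12 ± 0.171 RPKM and Hoxd9 at 1.49 ± 0.0594 RPKM (SD, n = 3) were the 2 expressed genes. Hoxd1, Hoxd3 and Hoxd4 on the one side were at 0.321 RPKM or less in every library. Exons of other genes overlap 62.85% of the length of Hoxd3 and 52.3% of that of Hoxd4, mostly on the same strand. How the counting treats reads in such stretches is not given, so the levels of these genes may be too low. On the other side Hoxd10, the next gene after Hoxd9, had 5 reads in 6 libraries, and Hoxd11, Hoxd12 and Hoxd13 had 1, 0 and 1. The last expressed gene in controls thus belonged to group 4 in Hoxc, group 5 in Hoxa, group 8 in Hoxb and group 9 in Hoxd.

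With AMI-5 no Hox gene rose and 8 of the 17 that had enough reads to test fell, at an adjusted p below 0.05. That is 47.1% of those tested, beside 26.6% of all 17519 tested genes called lower, 27.5% called higher and 54.1% called in either direction. Of the tested protein-coding genes 30.6% were called lower and 20.1% higher. Whether the Hox share differs from these was not tested. With trends in GC content and gene length of protein-coding genes removed, 4 of the 17, or 23.5%, were lower, beside 22.3% of the genes in that fit, so the share was then near the background, and the Hox median was −0.21. With such trends of all genes removed, 7 of the 17, or 41.2%, were lower, beside 28.1%, and the Hox median was −0.37. The 8 genes that fell without such removal were Hoxd9, Hoxb8, Hoxb4, Hoxc5, Hoxb5, Hoxb6, Hoxa3 and Hoxb3. The median log2 fold change of the 17 was −0.44, that of all tested genes −0.00 and that of tested protein-coding genes −0.06. Hoxd9 and Hoxb9 reached the level needed for testing in fewer AMI-5 than control libraries, so these counts and the median describe the 17 genes and not the family.

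The sum over all 39 genes was 136, 136 and 167 CPM in the controls and 111, 117 and 99.4 CPM with AMI-5. All AMI-5 sums were below all control sums. Control 3 had the highest sum, and for 14 of the 17 tested genes it held the highest control value. Without control 3 the number of genes that fell was 5, with Hoxa3, Hoxb6 and Hoxc5 no longer past the threshold. By cluster, summed RPKM went from 31.7 ± 4.98 to 22.3 ± 1.79 in Hoxb, from 16.2 ± 0.853 to 14.98 ± 0.693 in Hoxa, from 2.63 ± 0.626 to 2.01 ± 0.423 in Hoxc and from 4.02 ± 0.352 to 2.29 ± 0.567 in Hoxd (SD, n = 3).

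**Figure D2:**
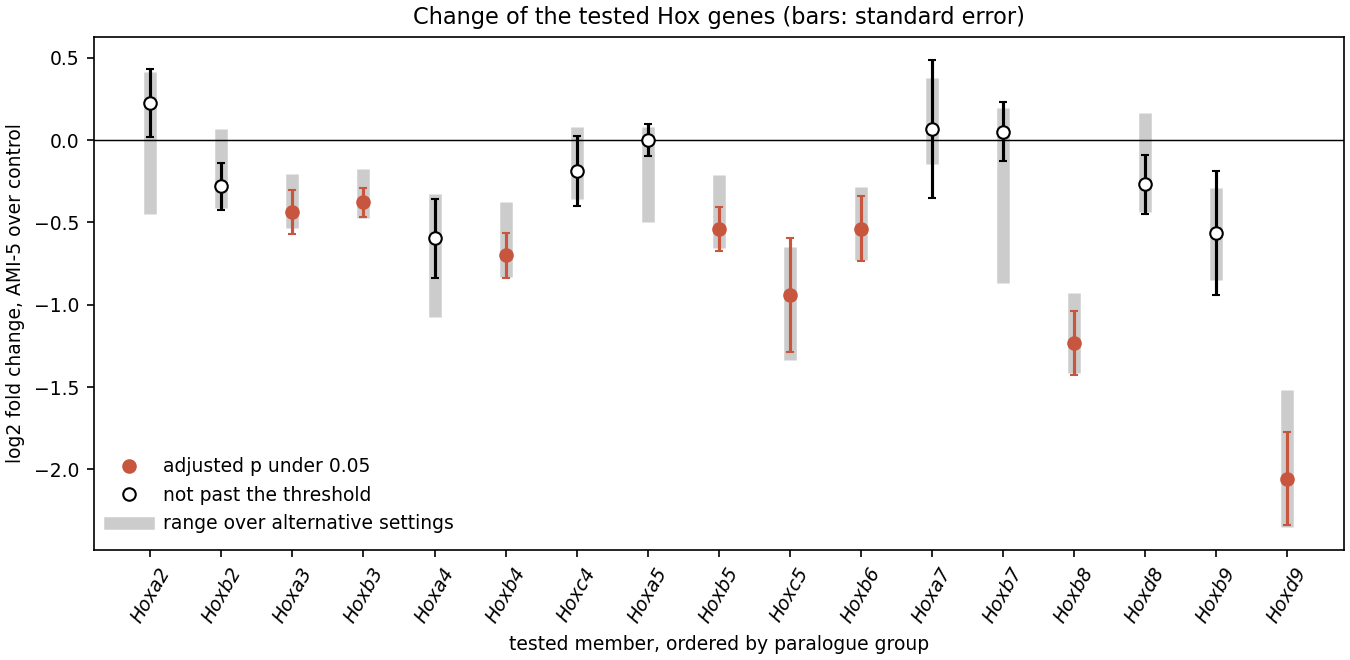
Log2 fold change of AMI-5 over control (vertical axis) for the 17 tested Hox genes, ordered by paralogue group. Points are estimates with their standard errors, filled red where the adjusted p is below 0.05, and grey bars span the values under the alternative settings; Hoxd9 at −2.06 and Hoxb8 at −1.23 lie lowest, and no red point is above 0.

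Hoxd9 had the largest change and marked the tail-side limit of Hoxd expression. The gene spans chr2:74697727-74700208 on the plus strand (mm10) and shares no exon and no stretch of 50 bases with another annotated gene. It had 40, 43 and 44 reads in controls 1 to 3 and 17, 24 and 11 reads in the deeper AMI-5 libraries. As levels these were 1.45, 1.47 and 1.56 RPKM against 0.357, 0.501 and 0.218 RPKM. The controls lay close together and the AMI-5 libraries were all far below them. The log2 fold change was −2.06 with a standard error of 0.28 (adjusted p = 7.2e-05), where 2.24% of all tested genes fell by a log2 value of 1 or more. Its neighbour Hoxd8 was not past the threshold: 2.01, 2.05 and 2.32 RPKM in controls and 1.603, 2.21 and 1.48 RPKM with AMI-5, with overlapping groups (log2 fold change −0.27, adjusted p = 0.232).

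Because Hoxd10, Hoxd9 and Hoxd8 were nearly silent, lower with AMI-5 and not past the threshold in that order along the chromosome, the sequences before their starts are shown. Each is the stretch from 250 to 51 bases before the RefSeq start on the plus strand of GRCm38.p6, at chr2:74691641-74691840, chr2:74697513-74697712 and chr2:74704365-74704564.
Hoxd10: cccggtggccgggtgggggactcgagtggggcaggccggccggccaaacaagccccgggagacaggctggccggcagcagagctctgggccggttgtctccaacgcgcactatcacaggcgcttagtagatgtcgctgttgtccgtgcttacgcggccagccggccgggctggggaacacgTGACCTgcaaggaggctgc
Hoxd9: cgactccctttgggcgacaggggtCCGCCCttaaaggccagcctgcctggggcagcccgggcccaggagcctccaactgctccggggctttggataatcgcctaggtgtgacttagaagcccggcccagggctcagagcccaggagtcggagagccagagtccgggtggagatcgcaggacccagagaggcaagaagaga
Hoxd8: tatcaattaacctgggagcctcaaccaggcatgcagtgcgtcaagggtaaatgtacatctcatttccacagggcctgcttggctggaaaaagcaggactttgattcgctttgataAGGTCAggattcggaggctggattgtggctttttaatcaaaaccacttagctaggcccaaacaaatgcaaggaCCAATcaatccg
Capitals mark matches, on either strand, to 5 short motifs. Of the general promoter elements, the TATA box was searched as TATAAA, the box named for its letters as CCAAT and the GC box of Sp factors as GGGCGG. The other ones are bound by regulators of interest here. A Hox-Pbx type site was searched as TGATTNAT. The half-site of nuclear receptors, those of retinoic acid among them, was searched as AGGTCA. No matches overlapped one another. Over all 32851 windows of this length 9.14%, 28.4%, 24.6%, 2.34% and 11.4% held them, in that order, and of the 24 windows of Hox genes 3, 11, 9, 2 and 6 did. The Hoxd10 window was 69.5% G and C with 18 CpG, that of Hoxd9 65.5% with 10 and that of Hoxd8 46.5% with 4, where all windows had a median of 4 CpG and the Hox windows a median of 11. The Hoxd9 window overlaps an exon of Gm28793, a noncoding gene. These matches are descriptions of the letters and not of binding.

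Hoxb8, the tail-side limit of Hoxb expression, was the second largest change. It spans chr11:96281905-96285315 on the plus strand and was read at 3.21, 2.43 and 4.199 RPKM in controls and 1.499, 1.30 and 1.38 RPKM with AMI-5. The controls were spread widely, yet every AMI-5 library was below the lowest of them. The log2 fold change was −1.23 with a standard error of 0.20 (adjusted p = 0.000224). The adjoining Hoxb7 was at 2.81, 2.45 and 2.85 RPKM in controls and 3.17, 2.94 and 2.30 RPKM with AMI-5, with overlapping groups and a log2 fold change of 0.05 (standard error 0.18, adjusted p = 0.829). This contrast depended on the treatment of GC content and length: with their trends over all genes removed, Hoxb7 was at −0.87 and called lower (adjusted p = 0.00131), about as low as Hoxb8 at −0.93.

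Hoxb4, the Hoxb gene of highest RPKM as counted and known from blood stem cell and axial patterning studies, lies at chr11:96318267-96321638. It was at 6.10, 7.30 and 9.10 RPKM in controls and at 4.90, 4.74 and 4.23 RPKM with AMI-5. Again no library of one group reached the other. The log2 fold change was −0.70 with a standard error of 0.14 (adjusted p = 0.00112).

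Hoxd9, Hoxb8 and Hoxb4 were the 3 genes called lower under every one of 19 alternative settings, with log2 fold changes from −2.35 to −1.51, −1.41 to −0.93 and −0.83 to −0.37. For this reason the windows of the 2 Hoxb genes are shown too, drawn and marked in the same way, at chr11:96281655-96281854 and chr11:96318017-96318216 on the plus strand of GRCm38.p6.
Hoxb8: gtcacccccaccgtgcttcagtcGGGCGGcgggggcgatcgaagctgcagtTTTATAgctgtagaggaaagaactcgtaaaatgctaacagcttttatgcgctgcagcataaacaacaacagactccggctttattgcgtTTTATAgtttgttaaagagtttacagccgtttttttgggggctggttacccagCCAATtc
Hoxb4: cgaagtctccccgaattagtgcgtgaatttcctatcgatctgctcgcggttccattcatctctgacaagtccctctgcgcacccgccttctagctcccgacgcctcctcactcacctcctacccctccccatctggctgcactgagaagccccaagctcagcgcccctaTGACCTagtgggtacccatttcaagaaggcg
The Hoxb8 window holds a TATA box match at 2 places, a CCAAT box and a GC box. In the Hoxb4 window the single match is the nuclear receptor half-site, on the minus strand. No motif is common to the windows of the 3 genes that fell under every setting.

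Of the other 5 genes that fell, 3 belong to Hoxb. Hoxb5 went from 4.92, 4.19 and 5.85 RPKM to 3.24, 3.81 and 3.24 RPKM, Hoxb6 from 3.28, 2.97 and 4.94 RPKM to 2.81, 2.70 and 2.194 RPKM, and Hoxb3 from 5.05, 5.50 and 5.74 RPKM to 3.98, 4.42 and 4.14 RPKM. In each the groups did not overlap. Their log2 fold changes were −0.54, −0.54 and −0.38 (adjusted p = 0.00502, 0.0382 and 0.00324). Over 52.9% of the length of Hoxb3 the noncoding gene Hoxb3os lies on the opposite strand, and since the strand setting of the counting is not given in the sources used here, reads of the pair may not be separated.

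Hoxa3, a gene of pharyngeal and neck development, went from 1.97, 2.02 and 2.47 RPKM to 1.72, 1.70 and 1.36 RPKM, without overlap (log2 fold change −0.44, adjusted p = 0.0150). Exons of other genes overlap 27.1% of its length. Hoxc5 was at 0.753, 0.920 and 1.40 RPKM in controls and at 0.799, 0.490 and 0.315 RPKM with AMI-5. One AMI-5 library lay above the lowest control, so Hoxc5 is the single called gene with overlapping groups (log2 fold change −0.94, standard error 0.35, adjusted p = 0.0411). In all, 7 of the 17 tested genes had every AMI-5 library below every control, beside 30.6% of all tested genes. Every AMI-5 library was above every control for 0 of the 17, beside 31.3% of all tested genes. Calls for Hoxb6 and Hoxc5 were lost under 10 of the 19 alternatives each, among them leaving out control 3, AMI-5 2 or AMI-5 3 for both, AMI-5 1 for Hoxb6 and control 2 for Hoxc5, at adjusted p of up to 0.208 and 0.159. Hoxa3 lost its call without control 3 or AMI-5 3 (adjusted p up to 0.0764), and with GC and length trends of protein-coding genes removed Hoxa3 and Hoxb3 moved to −0.21 and −0.18 and were not called. With such trends of all genes removed Hoxb5 moved to −0.21 and was not called (adjusted p = 0.187).

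The 9 tested genes not past the threshold had log2 fold changes from −0.60 to 0.23. Hoxa4 came nearest to it, at 1.75, 3.61 and 3.04 RPKM in controls and 2.00, 1.87 and 1.70 RPKM with AMI-5 (log2 fold change −0.60, adjusted p = 0.0548). Its lowest control lay within the range of the AMI-5 libraries, and without control 1 its adjusted p was 0.00395. Hoxa5 had a log2 fold change of 0.00 with a standard error of 0.10 (adjusted p = 0.994). Hoxb2, the head-side limit of Hoxb expression, was at 3.93, 3.09 and 4.35 RPKM against 3.23, 3.46 and 2.68 RPKM (log2 fold change −0.28, adjusted p = 0.118), and past the threshold without control 2 at an adjusted p of 0.0298. Hoxa2 was at 2.05, 1.56 and 2.26 RPKM against 1.87, 2.61 and 2.38 RPKM, and its log2 fold change of 0.23 was the highest of the 17 (adjusted p = 0.374). The rest were Hoxa7, Hoxb9 and Hoxc4, at log2 fold changes of 0.07, −0.56 and −0.19, besides Hoxb7 and Hoxd8 above.

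Too few reads were found for a test in 22 genes. Of these, 17 had at most 5 reads in the 6 libraries, and Hoxa13, Hoxc8 and Hoxd12 had 0, where 3 reads would be 0.0754 CPM over the controls and 0.0439 CPM over the AMI-5 libraries. Hoxa6, Hoxc6, Hoxd3 and Hoxd4 had more. Hoxd4 had 2, 13 and 12 reads in controls and 4, 7 and 3 with AMI-5, so its groups overlapped through control 1. Its ratio of AMI-5 to control was 0.302 with an exact 95% interval of 0.146 to 0.596 that covers counting error only. With every gene of at least 1 read in the fit, Hoxd4 was past the threshold at a log2 fold change of −1.67 (adjusted p = 0.00611), but 46.8% of its 50-base stretches occur in other annotated genes and its exons overlap those of Hoxd3. Hoxa6 had 20 reads in controls and 26 with AMI-5 and a ratio of 0.757 (0.406 to 1.43), and Hoxc6 and Hoxd3 also had intervals that include 1.

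Neighbouring genes were also compared by their ratio inside each library, which needs no scaling between libraries but does not remove effects of GC content or length on single genes. Hoxd9 over Hoxd8 was 0.724, 0.717 and 0.673 in controls and 0.223, 0.227 and 0.147 with AMI-5. Hoxb8 over Hoxb7 was 1.14, 0.992 and 1.48 in controls and 0.473, 0.442 and 0.600 with AMI-5. As given above, the gap between Hoxb8 and Hoxb7 nearly closed with trends over all genes removed, while Hoxd9 and Hoxd8 were then at −1.51 and 0.17 on the log2 scale. In both pairs all AMI-5 ratios were below all control ratios, and the pairs were picked after the values were seen. The exact two-sided permutation test over libraries gave p = 0.1 for each, the smallest that 3 against 3 can give, and 0.2 when adjusted over the 6 pairs computed. Hoxb4 over Hoxa5, across clusters, was also lower in all AMI-5 libraries, at 0.710, 0.979 and 1.04 against 0.604, 0.558 and 0.518. For Hoxb4 over Hoxb3, Hoxa4 over Hoxa5 and Hoxc5 over Hoxc4 the groups overlapped.

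In the make-up of the clusters, Hoxd9 was 37.2% ± 1.99 of the summed Hoxd level in controls and 15.3% ± 2.93 with AMI-5, and Hoxd8 was 52.8% ± 1.77 and 77.4% ± 3.10 (SD, n = 3). Hoxb8 went from 10.2% ± 1.39 to 6.26% ± 0.678 of Hoxb, while Hoxb7 went from 8.60% ± 0.9497 to 12.5% ± 1.21. Shares of one cluster depend on one another, so a gain in share is not a gain in level. Hoxb3, Hoxb4, Hoxb5 and Hoxb6 each kept a share of Hoxb whose groups overlapped.

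**Figure D3:**
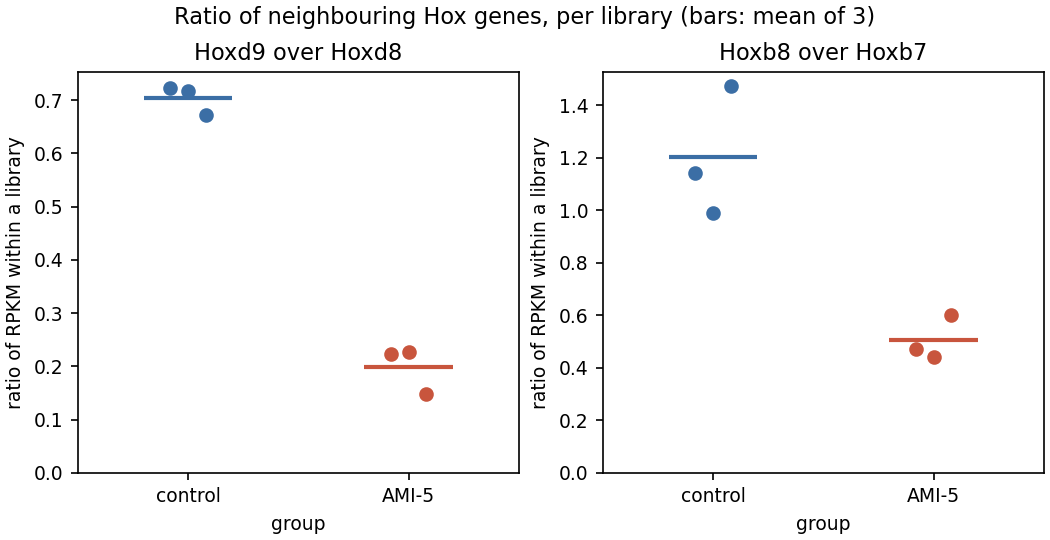
Ratio of RPKM of 2 neighbouring genes within each library (vertical axes, from 0) in the control and AMI-5 groups. Dots are libraries and bars the mean of 3; Hoxd9 over Hoxd8 is at 0.673 or more in controls and at 0.227 or less with AMI-5, and Hoxb8 over Hoxb7 is at 0.992 or more and 0.600 or less.

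Among paralogue groups 2 to 9, groups 9 and 8 had the lowest ratios of AMI-5 to control. Summed RPKM of group 9 was 1.82 ± 0.113 in controls and 0.584 ± 0.227 with AMI-5, and that of group 8 was 5.40 ± 1.03 and 3.16 ± 0.330 (SD, n = 3). Group 4 had 11.98 ± 2.66 and 7.83 ± 0.685, group 5 had 14.3 ± 1.70 and 12.2 ± 0.537, and group 2 had 5.75 ± 0.999 and 5.41 ± 0.574. Group 7 was at 2.92 ± 0.276 and 3.03 ± 0.542. Calls differed among paralogues: in group 9 Hoxd9 fell, and Hoxb9 had a log2 fold change of −0.56 (adjusted p = 0.229). In group 8 Hoxb8 fell and Hoxd8 did not pass the threshold, and in group 5 Hoxb5 and Hoxc5 fell while Hoxa5 had a log2 fold change of 0.00. With GC and length trends over all genes removed the calls in group 5 were the other way round: Hoxa5 was called lower at −0.50 (adjusted p = 0.000706), and Hoxb5 at −0.21 and Hoxc5 at −0.69 were not called. Differences between paralogues were not tested.

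The clusters also hold 43 noncoding genes in the table, of which 26 had 0 reads and 7 could be tested. Hoxb3os, the antisense gene at Hoxb3, fell, with 32, 22 and 31 reads in controls and 23, 28 and 24 in the deeper AMI-5 libraries (2.14 ± 0.473 CPM and 1.10 ± 0.130 CPM; adjusted p = 0.0073 at a log2 fold change of −0.96). Gm11539, a processed pseudogene that lies inside the Hoxb span, was the one to rise, from 13, 10 and 17 reads to 617, 595 and 542 (log2 fold change 4.67, adjusted p = 4e-10). Of its 50-base stretches 41.3% occur in other annotated genes, so its reads may stem from elsewhere. Hoxaas2 at −0.23 and Hoxaas3 at 0.09, in Hoxa, did not pass the threshold. Hairpins of the microRNAs Mir10a, Mir10b, Mir196a-1, Mir196a-2, Mir196b and Mir615 had 0 or 1 read, in libraries not made for small RNA.

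Genes beside the clusters did not follow one direction. Of the 24 nearest protein-coding genes, 3 on each side of each cluster, 23 were tested. Of these 9 rose and 6 fell, beside 27.5% and 26.6% of all tested genes and 20.1% and 30.6% of tested protein-coding genes. The share that fell was near these backgrounds and the share that rose was above both. Whether either share differs from them was not tested. Their median log2 fold change was 0.13. Among them Cbx1, Cbx3 and Cbx5, heterochromatin protein genes within 3 genes of Hoxb, Hoxa and Hoxc, fell by 0.45, 0.82 and 0.34 on the log2 scale (adjusted p = 3e-05, 1.5e-05 and 0.000493). Skap1 rose by 1.22 and Ttll6 by 1.83. The smallest p-values of the list belonged to Hnrnpa1 and Atp5g1, at log2 fold changes of −0.98 and 1.49.

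Of 11 genes for TALE cofactors, the homeodomain partners of Hox proteins, 4 fell and 0 rose (median log2 fold change −0.05), a share lower near the 30.6% of tested protein-coding genes. With RLE or upper-quartile scaling, or the stricter filter, 2 rose. Meis3 went from 26.6 ± 1.43 to 16.8 ± 0.717 CPM, Tgif2, a related repressor, from 46.9 ± 2.48 to 32.4 ± 2.00 CPM, Meis1 from 96.0 ± 8.23 to 74.97 ± 6.03 CPM and Pbx2 from 88.1 ± 1.598 to 74.1 ± 2.39 CPM (SD, n = 3), at log2 fold changes of −0.66, −0.53, −0.36 and −0.25. Meis2, among the cofactor genes with the most reads, did not pass the threshold, at 132.3 ± 3.43 and 132.2 ± 4.02 CPM. Of the Cdx, ParaHox and Evx genes, relatives of the Hox genes, Pdx1 was the one with enough reads; this regulator of pancreas development fell, with 90.0 ± 5.66 CPM in the control libraries and 57.3 ± 4.10 CPM in the others (adjusted p = 1e-05 at a log2 fold change of −0.65). Cdx1, Cdx2 and Cdx4 had 6, 4 and 3 reads.

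Of 23 Polycomb genes 12 fell and 1 rose (median log2 fold change −0.21), and of 15 trithorax-side genes 8 fell and 1 rose (median −0.24), beside the 26.6% of all genes that fell. With GC and length trends over all genes removed, the trithorax-side genes were near balance, 5 higher and 6 lower, and of the Polycomb genes 4 were higher and 10 lower. Ezh2, the methyltransferase of Polycomb complex 2, went from 91.1 ± 0.952 to 70.1 ± 2.79 CPM (SD, n = 3), and Phc2, Cbx2 and Pcgf2, of Polycomb complex 1, had log2 fold changes of −0.54, −0.60 and −0.48. Rnf2, the ubiquitin ligase of that complex, rose by 0.30. On the other side Dot1l, a histone H3 methyltransferase, Kdm6b, a demethylase that removes the Polycomb mark, and Men1, a subunit of MLL complexes, had log2 fold changes of −0.53, −0.46 and −0.37, and Kmt2c rose by 0.42. Setd1a, at −0.68, shares 51.2% of its 50-base stretches with other annotated genes.

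Retinoic acid genes went both ways. Of 16 tested, 3 rose and 4 fell (median log2 fold change 0.03), beside 27.5% and 26.6% of all tested genes. With GC and length trends removed, 8 were higher and 3 lower over all genes, and 6 and 2 over protein-coding genes. Those that rose were Aldh1a3, which makes retinoic acid, from 1.56 ± 0.402 to 4.03 ± 0.459 CPM, Stra6, the retinol uptake receptor, from 6.80 ± 1.11 to 12.2 ± 1.33 CPM, and Dhrs3. Those that fell were the receptors Rara, Rxrb and Rxrg at log2 fold changes of −0.44, −0.52 and −1.65, and the binding protein Crabp1 at −0.56.

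**Figure D4:**
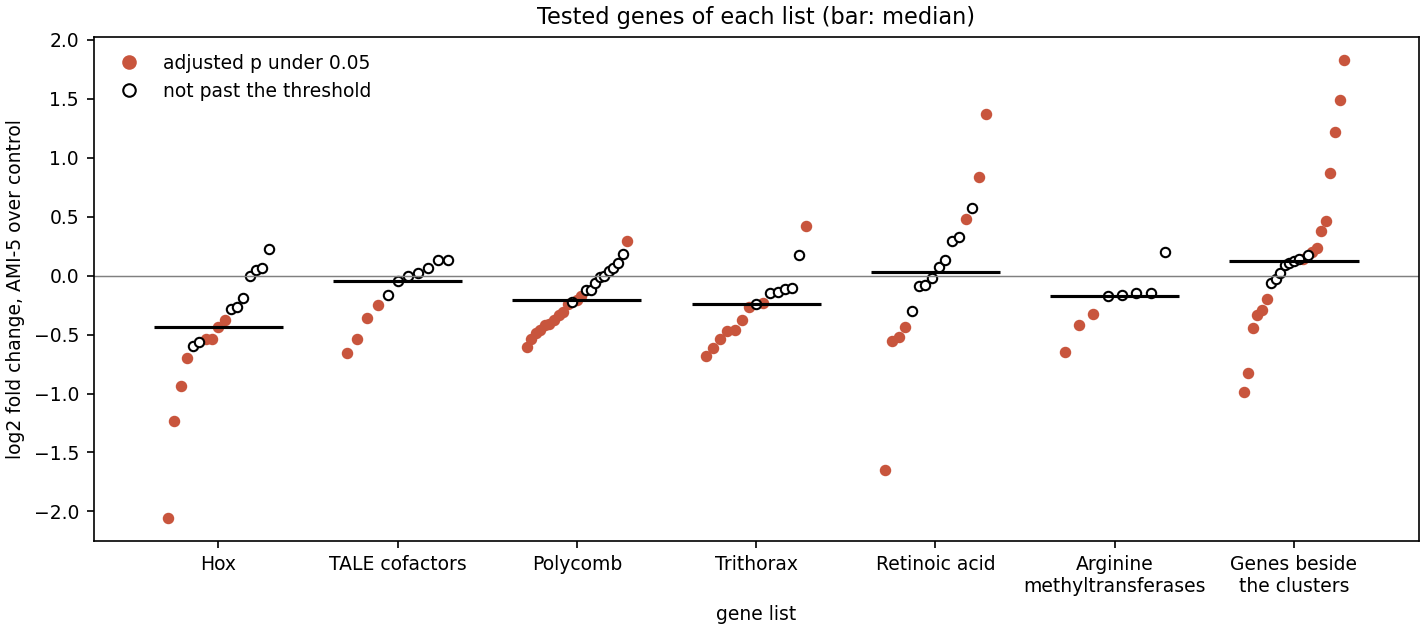
Log2 fold change of AMI-5 over control (vertical axis) for each tested gene of 7 gene lists (horizontal axis), sorted within a list. Red points have an adjusted p below 0.05 and bars are list medians, which lie at −0.44 for the Hox genes, −0.21 for Polycomb, −0.24 for trithorax, −0.05 for TALE cofactors and 0.13 for the genes beside the clusters.

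Markers of the cell types in the tissue moved as well, and their part in the Hox values was not tested. Their counts here and below stand beside 26.6% of all tested genes called lower and 27.5% called higher. Of tested protein-coding genes these shares were 30.6% and 20.1%. Whether any marker list differs from these shares was not tested. Summed mesenchyme markers overlapped between groups, at 9828 to 10300 CPM in controls and 9526 to 10950 CPM with AMI-5, and of 16 tested 5 rose and 5 fell. With GC and length trends removed these counts were 6 and 2 over all genes and 6 and 1 over protein-coding genes. Dcn and Postn, matrix genes, rose by 0.83 and 0.71, Lum and Col3a1 rose too, and Col1a1 and Col1a2 fell. The mesenchymal transcription factor genes Nkx3-2, Tcf21 and Barx1 had log2 fold changes of −1.02, −0.69 and −0.58. Prrx1, another factor gene of the list, rose by 0.30, and Foxf1, Twist1 and Twist2 did not pass the threshold. Spleen primordium markers, among them Barx1, were lower as a sum, 138 to 157 CPM against 93.3 to 110 CPM, and 4 of 5 fell, including Tlx1 at −0.87.

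Neural crest and neuron markers summed to 170 to 178 CPM in controls and 126 to 150 CPM with AMI-5, with 2 of 10 higher and 3 lower, and epithelial markers to 3494 to 4079 CPM and 3123 to 3415 CPM, with 1 of 10 higher and 7 lower. Blood cell markers went the other way, from 180 to 228 CPM up to 287 to 449 CPM, with 6 of 9 tested higher. Much of this rise was in the globin genes Hba-a1 and Hbb-bs, at 5.52 and 4.37 CPM in controls and 48.3 and 48.5 CPM with AMI-5. Of their 50-base stretches 72.3% and 53.2% occur in other annotated genes. Tyrobp, Csf1r and Laptm5 did not pass the threshold. The sums of mesothelial and endothelial markers overlapped, at 59.4 to 86.6 and 53.2 to 94.1 CPM and at 475 to 587 and 394 to 563 CPM, with 1 of 7 higher and 2 of 8 lower. Pancreas markers, with 2 of 8 higher and 3 lower, gave overlapping sums of 8094 to 10530 and 10330 to 12570 CPM. For gut epithelium the sums were 25.2 to 30.2 and 29.7 to 37.1 CPM, 0 of 2 tested genes passed the threshold (edgeR, 17519 genes in the fit), and its defining gene Cdx2 had 4 reads, all in controls. No listed marker was at 0 in all libraries.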

How the data were processed

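The authors deposited 1 table of read counts per gene, with gene lengths. Per the submitters' processing notes, reads were handled with bcl2fastq 2.19.1, GSNAP 2018-05-30 and featureCounts 1.6.2 on mm10, and the table names Ensembl 87; for strand setting and multi-mapped reads, the choice is not given in the sources used here. Of 49763 entries, 92 spike-ins with 1 read in all were left out. Symbols were matched for 49412 gene IDs to GENCODE M21, including all 39 Hox genes. Counts were tested with edgeR 4.0.16 (R 4.3.3; TMM scaling, filterByExpr, robust quasi-likelihood fit on all 6 libraries, Benjamini-Hochberg adjustment over 17519 genes, threshold 0.05); limma 3.58.1 and DESeq2 1.42.0 served as alternatives. Only the edgeR fit with these settings was also run on simulated counts, in which far fewer genes changed than were called here. No result above rests on that run. RPKM uses the deposited length and the TMM-adjusted total. Promoter sequences come from RefSeq and matched 22 Hox genes.

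The members and lists were chosen with earlier results of these data known. Single values are given for the 4 genes of highest mean RPKM in each cluster, for called genes with a log2 change of 0.58 or more, and for up to 4 called genes and the 2 with the most reads of each list; the others are named from their counts. Replicates differed by more than sampling noise (chi-square per degree of freedom 6.71 to 16.1). Library totals run from 12445425 to 24805188 reads; Hoxd9, near 1 RPKM, had 40 to 44 reads in the controls. Alternatives were other scalings, filters and tools, a replicate term, GC and length trends, unique sequence, thinning and leaving out libraries. A few items covered by these rules are not reported here.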

Additional observations from a re-analysis of the deposited data

How the results depend on the processing

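No Hox gene was called higher under any of the 19 alternatives in edgeR, DESeq2 or limma; an unadjusted p below 0.05 was reached by 9 of the 17 tested genes, and all of the 9 were lower. The count of genes called lower, 8, was 4 after trends with GC content and length were taken out across protein-coding genes, 5 among protein-coding genes of unique sequence, and 3 with the replicate block and those trends together. With the replicate block alone it was 6, without Hoxb6 and Hoxc5. After such trends were taken out across all genes it was 7, of which 4 were among the 8. Same-numbered libraries did not deviate together (correlations −0.0579, −0.0377 and −0.048), so the numbers are not taken as pairs. Leaving out 1 library gave 5 to 10 genes, 5 without control 3 or AMI-5 3 and 10 without control 1. Hoxd9, Hoxb8 and Hoxb4 kept their call under all 19. With trends in GC content and length taken out across all genes, 6 of the 17 changed sign: Hoxa5 to −0.50 (adjusted p = 0.000706) and Hoxb7 to −0.87 (adjusted p = 0.00131), both then called, and, without a call, Hoxa2 to −0.45, Hoxb2 to 0.07, Hoxc4 to 0.08 and Hoxd8 to 0.17. The cause was not tested. At 2 RPKM in place of 1, 9 genes were expressed in controls and 7 with AMI-5. Depth limits the genes of groups 10 to 13, where a gene of 0 to 5 reads gives no direction.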
